A study of Mus musculus with 18 samples.

Results

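Described here are 38 genes of the MYC transcription factor network and of ribosome biogenesis in leukemic spleens of mice with T-cell acute lymphoblastic leukemia (T-ALL). The members were a named list, matched by gene symbol to the deposited tables, and all 38 were found among the 18329 genes of the acute table and the 18953 genes of the survival table. They fall into 7 role groups: the MYC network, growth genes linked to MYC, the RNA polymerase I machinery, small nucleolar ribonucleoprotein (snoRNP) genes, assembly factors of the small and of the large ribosomal subunit, and abundant nucleolar proteins.

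RNA was sequenced from spleens of C57BL/6 mice that had been sub-lethally irradiated and injected intravenously with T-ALL cells carrying a conditional knockout allele of Acly, the gene of the enzyme that makes cytosolic acetyl-CoA from citrate. Every library, WT included, came from such a leukemia, and KO mice received tamoxifen (3 mg per mouse, intraperitoneally, in corn oil) where WT mice received corn oil only, so the genotypes differ in tamoxifen as well as in Acly. In the acute experiment, KO acute (n = 4) and WT acute (n = 4) mice were treated when overtly leukemic and their spleens were taken 48 h later. In the survival experiment, the mice of a first KO wave (n = 3), a second KO wave (n = 3) and WT survival (n = 4) received their treatment 48 h after transplantation, and spleens were collected at the humane endpoint. What distinguishes the waves, whether each library is a different mouse and whether all mice carried the same primary T-ALL is not labelled. The p-values therefore set group differences only against the spread among these samples, and that spread may be technical. The sources used here do not give the exons that the conditional allele loses, the ages of the mice or the driver of the recombinase.

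MYC pairs with MAX and binds the E-box CACGTG in promoters, while MXD proteins such as MXD4 compete for MAX and oppose it. Among its best-known targets are the genes that build ribosomes: RNA polymerase I transcribes the ribosomal RNA precursor in the nucleolus, snoRNPs modify it, and assembly factors cut and fold it into the small and the large subunit. In T-ALL, Myc is a well-known target of NOTCH signalling and a driver of cell growth.

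Values are gene counts estimated by the authors and divided by size factors (normalized counts), and log2 fold changes are on the log2(normalized count + 1) scale, KO minus WT, with the standard error (SE) of the limma model. A gene was called when its p, adjusted with Benjamini-Hochberg over all genes tested, was under 0.05. Normalized totals were 7067041 to 7256932 in KO acute and 7639306 to 8026397 in WT acute libraries, and 9849286 to 10074914 in the first wave, 9695165 to 10118108 in the second wave and 9193232 to 10386517 in WT survival libraries. Acly itself had 620 to 804 normalized counts in KO acute against 1129 to 1422 in WT acute libraries, and 656 to 800 in the first wave and 505 to 655 in the second wave against 1486 to 1854 in WT survival libraries. All 12 T-lineage markers were in both tables and none was at 0 in any library. KO acute libraries 1 and 2 had mitochondrial shares of 4.80% and 5.27%, against 2.35% and 2.70% in the other KO acute libraries. WT acute libraries had 3.50% to 3.69%. On principal component 1, WT survival libraries 1 and 2 had scores of 78.6 and 67.2, where the other WT survival libraries had -18.8 and 4.20. Second-wave library 1 stood far out on the other side, at -73.2, where second-wave libraries 2 and 3 had -9.9 and -16.5. Counts of members, and the member values that move most, are also given without KO acute 1 and 2 and without WT survival 1 and 2. Second-wave library 1 was left out only in the alternatives that drop 1 library.

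A promoter window of RefSeq (GRCm38.p6, 250 bases before to 50 after the start) was at hand for 32 of the 38 members, all but Myc, Srm, Fbl, Rrp12, Bop1 and Npm1. CACGTG, which reads the same on both strands, stood in a window of 9 of these 32 members (28.1%): Rrn3, Nop2, Mxd4, Max, Utp20, Wdr43, Pes1, Nle1 and Mybbp1a. Of the 10326 genes tested in the acute table that had a window, 11.0% held it in any of their windows. Counted by window rather than by gene, it was in 7.15% of all 32851 windows. The sequences, 5′ to 3′ with the E-box in capitals, are the 250 bases before the start of Rrn3 (chr16:13780449-13780698, plus strand), the member with 2 motifs and 1 of the 6 called in acute leukemia, and 60 bases around the motif of Nop2 (chr6:125131796-125131855, plus strand) and of Mxd4 (chr5:34187897-34187956, minus strand), the members with the highest and the lowest log2 fold change in the second wave.
Rrn3: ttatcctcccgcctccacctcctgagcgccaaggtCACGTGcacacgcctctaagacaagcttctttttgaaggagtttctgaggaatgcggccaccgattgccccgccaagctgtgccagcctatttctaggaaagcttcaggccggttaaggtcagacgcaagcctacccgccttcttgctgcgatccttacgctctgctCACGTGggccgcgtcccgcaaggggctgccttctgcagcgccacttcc
Nop2: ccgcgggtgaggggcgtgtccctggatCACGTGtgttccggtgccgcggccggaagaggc
Mxd4: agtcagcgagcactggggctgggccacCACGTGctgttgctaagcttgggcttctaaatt

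The motifs of Rrn3 began 215 and 48 bases before the annotated start, that of Nop2 60 bases and that of Mxd4 219 bases before it. Those of Utp20, Pes1, Mybbp1a, Nle1 and Wdr43 lay 3 to 41 bases after the start. These letters are a description of the windows; binding was not measured.

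In overt leukemia 48 h after treatment, 6 of the 38 members fell in KO and 0 rose. Odc1, the rate-limiting enzyme of polyamine synthesis, fell by 0.87 ± 0.14 on the log2 scale (SE), and Rrn3, the initiation factor that brings RNA polymerase I to ribosomal DNA, fell by 0.60 ± 0.11. Tfrc, the transferrin receptor that takes up iron, Npm1, the nucleolar chaperone nucleophosmin, Ddx21, a nucleolar RNA helicase, and Nop14, a small-subunit assembly factor, fell as well. Of all 14184 genes tested, 12.6% were called, 4.58% higher and 8.07% lower, and the 6 members make up 15.8% of the 38. The median log2 fold change of the members was -0.045, against 0.031 over all genes, with 18 members above 0 (47.4%, against 52.4% of all genes) and 20 below. At an unadjusted p under 0.05, 1 member was higher, Ncl (2.6%, against 12.5% of all genes), and 6 were lower (15.8%, against 15.6%). Leaving out WT acute 4 brought the members called to 1 higher (Ncl) and 3 lower (Odc1, Rrn3 and Tfrc), and the genes called to 983.

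**Figure D1:**
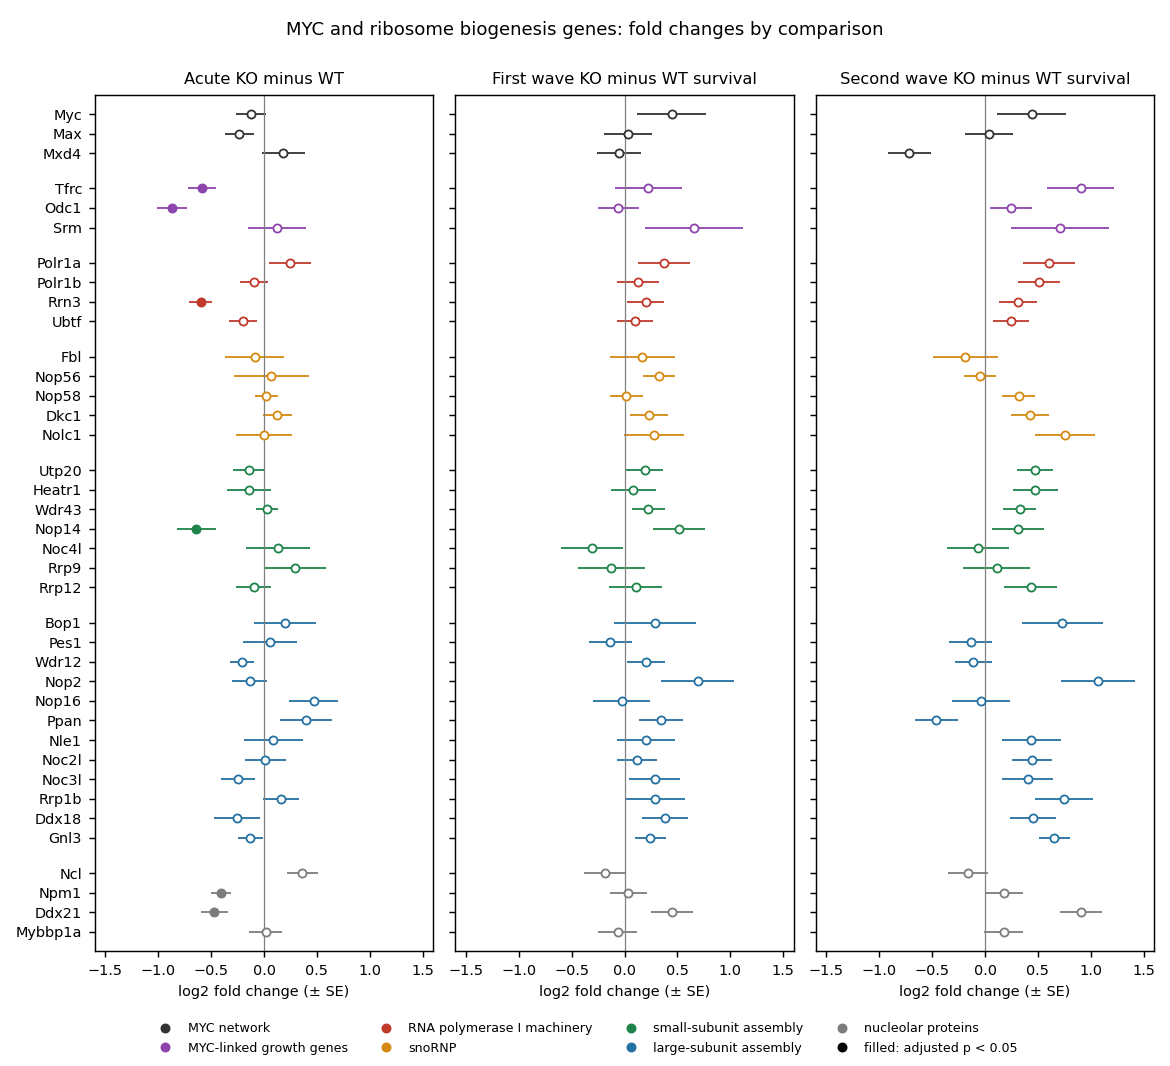
Log2 fold change of each member (points, bars ± SE of the limma model) in KO acute against WT acute, and in the first and the second wave of KO survival against WT survival, coloured by role, with filled points for an adjusted p under 0.05. The 6 filled points, from Odc1 at -0.87 to Npm1 at -0.41, are all in the acute panel, and 30 and 29 of the 38 points lie above 0 in the first and the second wave.

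Myc did not pass the test in acute leukemia. Its values were 920, 1053, 775 and 818 normalized counts in KO acute libraries, against 792, 923, 1095 and 1083 in WT acute libraries. The groups overlapped in part, with a log2 fold change of -0.12 ± 0.14 (SE; adjusted p = 0.62, limma) and a difference of means of -81.4 normalized counts (p = 0.314, exact two-sided permutation test). With quantile normalization or with library totals scaled, the log2 fold change of Myc was 0.00, on the other side of 0. Max, the partner through which MYC binds DNA, averaged 843 ± 115 in KO acute and 987 ± 97 in WT acute libraries (SD, n = 4 each; log2 fold change -0.23, adjusted p = 0.286, limma). Mxd4, which competes with MYC for MAX, averaged 1473 ± 95 in KO acute and 1359 ± 476 in WT acute libraries (SD, n = 4 each; log2 fold change 0.18, adjusted p = 0.592, limma).

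The growth genes held the member with the smallest p. Odc1 (chr12:17544794-17551505) had 1056, 1091, 766 and 960.1 normalized counts in KO acute libraries, against 1693, 1458, 1874 and 2030.1 in WT acute libraries. All 4 KO values were below the lowest WT value, and the fall (-0.87 ± 0.14, adjusted p = 0.00261, limma) stayed past the threshold in all 19 alternatives, with log2 fold changes of -1.03 to -0.72. GENCODE M21 places 1 snoRNA inside Odc1 on the same strand. Tfrc (chr16:32608920-32632794) had 3750.4, 4417, 3582 and 3063 normalized counts in KO acute libraries, against 4619.9, 5992, 5114 and 6524 in WT acute libraries. The groups did not overlap (-0.59 ± 0.13, adjusted p = 0.0118, limma), and the call was lost in 3 of 19 alternatives, by quantile normalization (-0.39, adjusted p = 0.0689), by removing a trend on transcript length, GC and abundance (-0.26, adjusted p = 0.253) and by eBayes without trend (adjusted p = 0.0861). Srm, spermidine synthase and thus the next step of the polyamine pathway after Odc1, averaged 111 ± 29 in KO acute and 102 ± 29 in WT acute libraries (SD, n = 4 each) and did not pass the test (log2 fold change 0.12).

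Tfrc is also abundant in immature red cells, whose markers had log2 fold changes in the same direction. Of 14 erythroid markers tested, 0 had a log2 fold change above 0 in KO acute against WT acute, the median was -0.90, and Hemgn was among those that fell (-1.18). Their summed share of the counts was 0.0752%, 0.168%, 0.0328% and 0.0428% in KO acute libraries 1 to 4. It was 0.0859%, 0.114%, 0.148% and 0.164% in WT acute libraries 1 to 4. KO acute 2 thus had a larger share than every WT acute library, and less Tfrc than each of them. None of these markers was at 0 in any library. T-lineage markers summed to 0.47% to 0.663% in KO acute and 0.609% to 0.736% in WT acute libraries, with 3 of 12 falling (Cd3g, Trbc2 and Rag1). Neutrophil markers summed to 0.0207% to 0.0629% in KO acute and 0.0097% to 0.0214% in WT acute libraries, with 2 of 11 rising (Ltf and Ngp) and Cebpe at 0 in at least 1 library. The part of these cells in the members' falls was not tested, and in bulk samples fewer cells of a type and less RNA per cell cannot be told apart.

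Among the genes of RNA polymerase I transcription, Rrn3 was the 1 of 4 called. Rrn3 (chr16:13780708-13814839) had 992, 947, 929 and 902 normalized counts in KO acute libraries, against 1557, 1395, 1447 and 1314 in WT acute libraries. The KO libraries lay in a narrow band below all WT libraries, and the fall (-0.60 ± 0.11, adjusted p = 0.00441, limma) held in all 19 alternatives, with log2 fold changes of -0.64 to -0.43. The largest polymerase subunit Polr1a averaged 422 ± 48 in KO acute and 364 ± 92 in WT acute libraries (log2 fold change 0.25), the second-largest subunit Polr1b 581 ± 66 in KO acute and 616 ± 23 in WT acute libraries (-0.09), and Ubtf, the factor that holds ribosomal DNA open, 1004 ± 97 in KO acute and 1158 ± 167 in WT acute libraries (-0.20; SD, n = 4 each). These 3 did not pass the test.

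**Figure D2:**
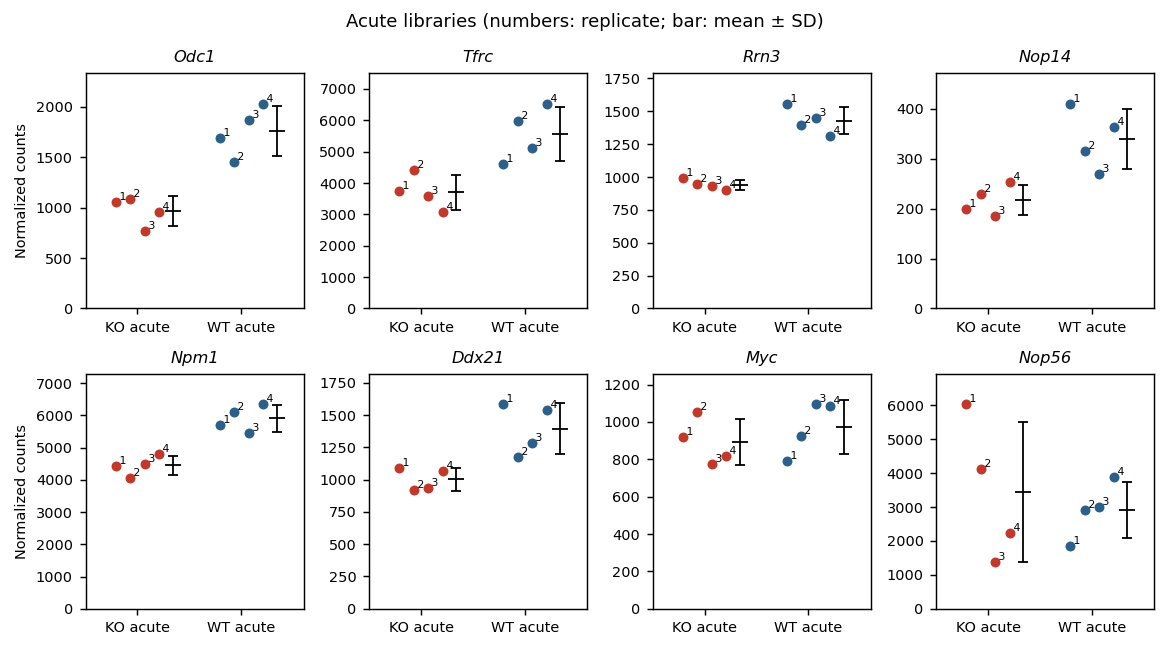
Normalized counts in each library of KO acute (left, n = 4) and WT acute (right, n = 4), numbered by replicate, with the mean ± SD as bars, for the 6 called members, Myc and Nop56. The KO points of Odc1, Tfrc, Rrn3, Nop14, Npm1 and Ddx21 are all below the WT points, while those of Myc overlap the WT points and those of Nop56 run from 1393 to 6034.

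None of the 5 snoRNP members passed the test. Nop56, a core protein of the box C/D snoRNPs that guide methylation, had 6034, 4117, 1393 and 2220.5 normalized counts in KO acute libraries, against 1864, 2909.5, 3007 and 3896 in WT acute libraries. Its KO values enclosed all WT values (log2 fold change 0.07 ± 0.35), and the 2 high ones are the libraries with the high mitochondrial share. Without them its log2 fold change was -0.68 (adjusted p = 0.118, limma). Ppan, a large-subunit assembly factor, was also high in KO acute 1 and 2, with 4535, 4873, 2207 and 2645 in KO acute libraries against 1881, 2312, 2731 and 3631 in WT acute libraries. Without these libraries the log2 fold change of Ppan was -0.09, against 0.39 with them, and it was called in neither. GENCODE places 5 snoRNAs inside Nop56 and 2 inside Ppan on the same strand, and the coding gene Idh3b overlaps Nop56 on the other strand. The sources used here do not give the strand setting of the counting, so reads of such neighbours may be mixed. Nop58, the partner of Nop56, averaged 2079 ± 131 in KO acute and 2053 ± 209 in WT acute libraries (SD, n = 4 each), and the methyltransferase gene Fbl 141 ± 41 in KO acute and 148 ± 37 in WT acute libraries. The pseudouridine synthase gene Dkc1 averaged 993 ± 153 in KO acute and 903 ± 79 in WT acute libraries, and Nolc1, a chaperone of snoRNPs, 353 ± 118 in KO acute and 343 ± 89 in WT acute libraries. With the trend removed, Dkc1 (0.45) and Nop58 (0.37) were past the threshold as higher.

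Of the 7 small-subunit assembly members, Nop14 alone was called. It (chr5:34638536-34660148) had 200.0, 229, 185 and 253 normalized counts in KO acute libraries, against 409.9, 316, 268.5 and 364 in WT acute libraries. All KO values were below all WT values (-0.64 ± 0.18, adjusted p = 0.0379, limma), but 11 of 19 alternatives lost the call. Leaving out any 1 library other than WT acute 3 or KO acute 4 was enough, with adjusted p-values of 0.0522 to 0.108, and without KO acute 1 and 2 together it was 0.121. An antisense gene lies inside Nop14 on the other strand. The other 6 (Utp20, Heatr1, Wdr43, Noc4l, Rrp9 and Rrp12) had log2 fold changes of -0.15 to 0.30 and overlapping groups.

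No member of the large-subunit assembly group passed the test in acute leukemia. Their log2 fold changes ran from -0.26 for the helicase Ddx18 to 0.47 for Nop16, with 7 of 12 above 0. The PeBoW complex genes Pes1, Bop1 and Wdr12, which act together on the large-subunit ribosomal RNA, had 0.06, 0.20 and -0.21. Noc3l was the 1 member of the group whose libraries did not overlap, with 199.6, 236, 233 and 235 normalized counts in KO acute libraries against 267.5, 271, 265 and 264.5 in WT acute libraries. Its difference was small (-0.24 ± 0.16, adjusted p = 0.343, limma). Across the 38 members, 7 were lower without overlap (18.4%), the 6 called and Noc3l, and 0 were higher, against 11% and 8.04% of all genes tested.

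Of the 4 abundant nucleolar proteins, Npm1 and Ddx21 fell. Npm1 (chr11:33152287-33163206) had 4442.5, 4049.9, 4494 and 4788 normalized counts in KO acute libraries, against 5697, 6118, 5446 and 6344 in WT acute libraries. The groups did not overlap (-0.41 ± 0.10, adjusted p = 0.0132, limma), and 6 of 19 alternatives lost the call, among them leaving out WT acute 4 (adjusted p = 0.0507) or KO acute 1 and 2 together (adjusted p = 0.0556). With the trend removed Npm1 was at -0.03 (adjusted p = 0.87), with quantile normalization at -0.18 (adjusted p = 0.184) and with totals scaled at -0.28 (adjusted p = 0.0558). The mouse genome holds pseudogene copies of Npm1, between which the estimation can divide reads, so its level is uncertain. Ddx21 (chr10:62580251-62602281) had 1088, 920.4, 933 and 1069 normalized counts in KO acute libraries, against 1584, 1177, 1279.9 and 1536.5 in WT acute libraries. It fell by 0.47 ± 0.13 on the log2 scale (adjusted p = 0.0314, limma) with no overlap, but 9 of 19 alternatives lost the call, among them leaving out KO acute 2 or 3 or WT acute 1 or 4, with adjusted p-values of 0.0666 to 0.101, and without KO acute 1 and 2 together it was 0.0874.

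Nucleolin had a log2 fold change in the other direction and did not pass the test. Ncl had 5784, 5315.5, 4351 and 5233 normalized counts in KO acute libraries, against 3600.1, 3361, 3858 and 5482 in WT acute libraries. WT acute 4 overlapped the KO libraries (0.36 ± 0.14, adjusted p = 0.117, limma), and without it Ncl was past the threshold as higher (0.51 ± 0.12, adjusted p = 0.0253). It was past it too with quantile normalization (0.59) and with library totals scaled (0.49). Mybbp1a, which binds RNA polymerase I and MYB proteins, averaged 863 ± 93 in KO acute and 862 ± 167 in WT acute libraries (SD, n = 4 each).

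Scaling changed which members were called. With quantile normalization 1 member was higher (Ncl) and 3 lower (Odc1, Rrn3 and Nop14), with library totals scaled 1 was higher (Ncl) and 3 lower (Odc1, Rrn3 and Tfrc), and with the trend removed 2 were higher (Dkc1 and Nop58) and 2 lower (Odc1 and Rrn3). Scaling by library totals moved the median of all genes to 0.157, relative to which the members' median of 0.081 was still lower. The split over all genes was 650 higher and 1144 lower as deposited, 746 and 832 with quantile normalization, 1094 and 718 with totals scaled, and 652 and 707 with the trend removed. Without KO acute 1 and 2, 3 members were called lower, Odc1 (-1.03), Tfrc (-0.73) and Rrn3 (-0.64), and 0 higher. Of all 14046 genes, 671 were then called lower and 232 higher. In that setting 12 of 38 members were above 0 (31.6%, against 52% of all genes), with a median of -0.111 against 0.025 over all genes.

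Genes of the same pathways outside the 38 gave 5 calls higher and 27 lower among 171 tested in 6 wider lists (2.9% and 15.8%, against 4.58% and 8.07% of all genes). The list of other MYC targets held 13 of the falls among its 38 genes (34.2%), with 0 rising and a median of -0.27. Without KO acute 1 and 2, 7 of the 38 fell, where 671 of all 14046 genes did. Eif5a, the translation factor that carries hypusine made from spermidine, averaged 4526 ± 999 normalized counts in KO acute and 9250.4 ± 900.3 in WT acute libraries (SD, n = 4 each; -1.05 ± 0.14, adjusted p = 0.000985, limma). The lactate dehydrogenase gene Ldha (-0.77) and Set (-0.52), which encodes a histone-binding phosphatase inhibitor, followed by adjusted p. Ldha, Eif5a and Pa2g4 kept their calls in all 19 alternatives, and Set lost its call in 3. Cks2 lost its call in 1, Hspd1 and Ppat in 2, Nme2 in 3 and Eif4a1 in 4. Apex1 lost its call in 9, Prmt1 in 10, Hspe1 in 11 and Tmem97 in 14. The log2 fold change of Eif4a1 ran from -0.453 to -0.036 over the alternatives.

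The other 5 wider lists held 5 rises and 14 falls. Of all genes tested, 4.58% rose and 8.07% fell. In the MYC and MAX network 12.5% rose and 12.5% fell, and among RNA polymerase I and III genes 7.4% and 3.7%. For snoRNP and assembly genes the shares were 0% and 23.1%, for small-subunit assembly 2.4% and 9.8%, and for large-subunit assembly 2.3% and 11.4%. In the MYC and MAX network, 1 of 8 tested genes rose, Mlxip (0.74), and 1 fell, Mlx (-0.81), which encode partners in a glucose-responsive dimer. Among 27 other genes of RNA polymerase I and III, Brf1 (0.67) and Taf1a (0.60), initiation factors of polymerase III and polymerase I, rose and the polymerase I subunit gene Twistnb (-0.69) fell, with a list median of 0.00. Among 13 snoRNP and assembly genes 0 rose and 3 fell, the core snoRNP genes Snu13 (-0.55) and Nop10 (-1.17) and the assembly factor Naf1 (-0.65).

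For small-subunit assembly 1 of 41 genes rose, Nat10 (0.70), the acetyltransferase of ribosomal RNA, and 4 fell, led by Wdr75 (-0.72), Imp4 (-0.74) and Utp4 (-0.70). For large-subunit assembly 1 of 44 rose, Rrp1 (0.72), and 5 fell, led by Rsl1d1 (-0.71), Cebpz (-0.95) and Nsa2 (-1.05). The medians of these lists were -0.13 and -0.11, against -0.10 and 0.03 for the small-subunit and large-subunit members of the 38. Rrp1 and its homologue Rrp1b among the members had 0.72 and 0.16. Several of these calls, with adjusted p-values of 0.0165 to 0.047 (limma), did not hold with 1 library left out. Of the 8 libraries, leaving out any of 7 ended that of Taf1a, any of 6 that of Nat10 and any of 5 those of Brf1, Utp4 and Rrp1. Leaving out any of 3 ended that of Naf1, and either of 2 that of Nsa2.

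**Figure D3:**
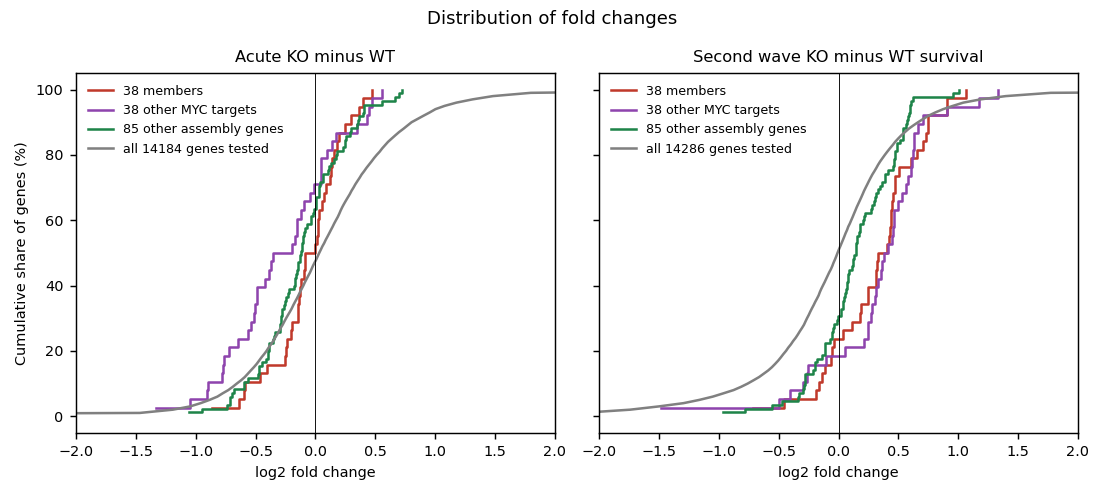
Cumulative share of genes (%) against log2 fold change for the 38 members, 38 other MYC targets, 85 other assembly genes of both subunits and all genes tested (14184 in KO acute against WT acute, left, and 14286 in second wave against WT survival, right). In the acute panel the members follow all genes around 0 (medians -0.045 and 0.031) while other MYC targets lie to the left (-0.27), and in the second-wave panel the members (0.36) and other MYC targets (0.40) lie to the right.

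In endpoint leukemia no member was called in any comparison. The first wave had 0 called genes of 14286 (limma), or 0%, with 8.02% at an unadjusted p under 0.05. Of the 38 members, 30 had a log2 fold change above 0 (50.6% of all genes did) with a median of 0.20, and 2 were at an unadjusted p under 0.05, both higher (5.3%, against 4.42% of all genes), where 3.6% of all genes were lower at that p. In the second wave 0.224% of genes were called, 0.049% higher and 0.175% lower. There 29 of 38 members were above 0 (49.1% of all genes) with a median of 0.36 against -0.009 over all genes. At an unadjusted p under 0.05, 12 members were higher (31.6%) and 2 lower (5.3%), against 6.59% and 6.4% of all genes. Both comparisons use the same WT libraries.

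WT survival libraries 1 and 2 bear on these counts. They held the lowest value of 8 and of 14 of the 38 members over the 10 survival libraries. WT survival 4 held the lowest value of 7 and WT survival 3 of 1. The highest value of 10, 3 and 11 members was in second-wave libraries 1, 2 and 3, and that of 5 in WT survival 2. Without WT survival 1 and 2, 22 of 38 members were above 0 in the first wave, with a median of 0.06. In the second wave 29 were, with a median of 0.27 and 6 members higher at an unadjusted p under 0.05 (15.8%, against 3.4% of all genes). The members' summed share of the counts was 0.636% to 0.672% in the first wave, 0.656% to 0.771% in the second wave and 0.569% to 0.68% in WT survival libraries. T-lineage markers summed to 0.42% and 0.457% in WT survival 1 and 2, against 0.705% and 0.751% in WT survival 3 and 4, and to 0.669% to 0.839% in the first wave and 0.509% to 0.603% in the second wave. The part of these markers in the members' values was not tested.

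Myc varied more among WT survival libraries than between groups. It had 1285, 1123 and 1092 normalized counts in the first wave and 976, 1035 and 1544 in the second wave, against 496.0, 615, 1555 and 1126.5 in WT survival libraries. The WT libraries spanned the whole range of both waves. The log2 fold change was 0.44 in each wave (adjusted p = 0.698 and 0.586, limma), with differences of means of 219 and 237 normalized counts (p = 0.486 and 0.6, exact two-sided permutation tests). Without WT survival 1 and 2 it was -0.19 in each, so the direction rests on those libraries. Max averaged 1178 ± 112 in the first wave (SD, n = 3) and 1187 ± 155 in the second (SD, n = 3), against 1196 ± 388 in WT survival libraries (SD, n = 4).

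**Figure D4:**
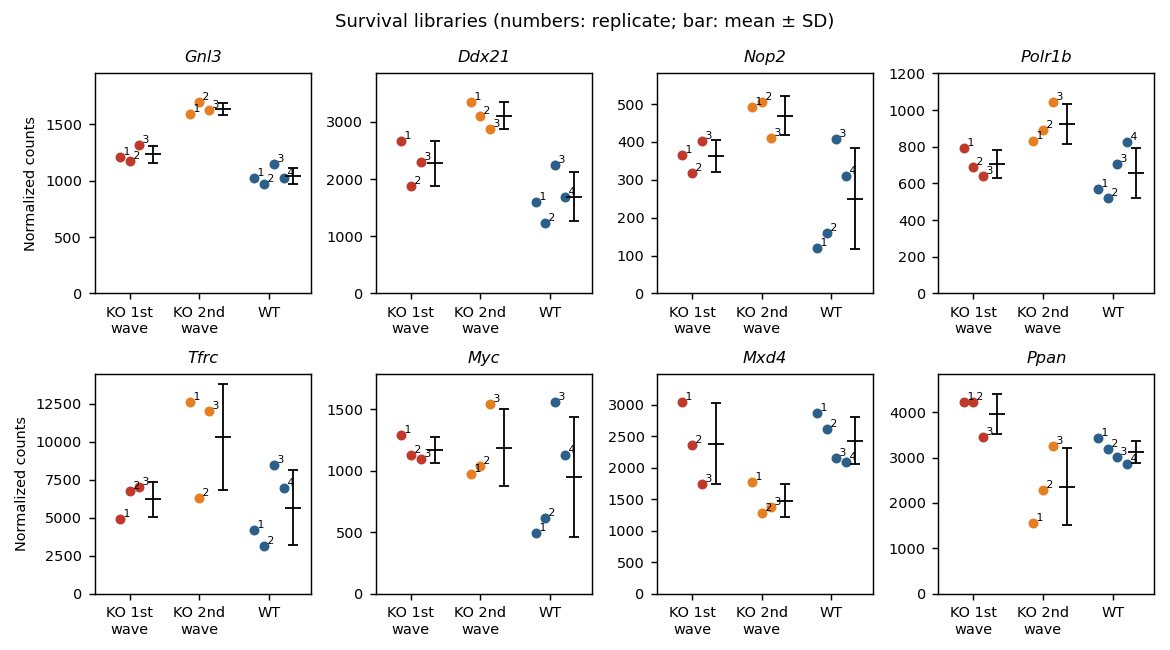
Normalized counts in each survival library, numbered by replicate, for the first KO wave (left, n = 3), the second KO wave (middle, n = 3) and WT (right, n = 4), with the mean ± SD as bars, for 8 members. Gnl3, Ddx21, Nop2 and Polr1b are higher in every second-wave library than in every WT library, Mxd4 is lower in every one, and WT survival 1 and 2 are the 2 lowest of all 10 libraries for Nop2 and Myc.

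Mxd4, the MYC antagonist, was the lowest member in the second wave. It had 3036, 2351 and 1746 normalized counts in the first wave and 1777, 1277 and 1375 in the second wave, against 2861, 2610.2, 2145 and 2086 in WT survival libraries. The second wave lay below every WT library and the first wave ran past the WT range on both sides. The log2 fold change was -0.72 ± 0.20 in the second wave (unadjusted p = 0.00329, adjusted p = 0.186, limma) and -0.05 in the first, and without WT survival 1 and 2 it was -0.53 in the second wave and 0.13 in the first. No other member was lower without overlap in the second wave (2.6% of members against 4.62% of all genes).

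The members with the smallest p in the second wave were Ddx21 and Gnl3. Ddx21 had 2664, 1877 and 2292 normalized counts in the first wave and 3351, 3101.5 and 2874 in the second wave, against 1593, 1226, 2254 and 1693.5 in WT survival libraries. Every second-wave library was above every WT library (0.91 ± 0.20, adjusted p = 0.0954, limma), and the first wave overlapped WT (0.45 ± 0.20, adjusted p = 0.617). Without WT survival 3 the second-wave difference of Ddx21 was past the threshold (1.06 ± 0.18, adjusted p = 0.0224), and without WT survival 1 and 2 it was 0.67 (adjusted p = 0.37). In acute leukemia the same gene had fallen, and the tables were normalized separately, so the difference between the experiments was not tested.

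Gnl3 encodes nucleostemin, a nucleolar GTPase. It had 1209.7, 1174 and 1316 normalized counts in the first wave and 1590.1, 1699 and 1625 in the second wave, against 1022, 975, 1144 and 1024 in WT survival libraries. Both waves were above every WT library, and every second-wave library was above every first-wave library. The log2 fold change was 0.66 ± 0.15 in the second wave (adjusted p = 0.108, limma) and 0.25 ± 0.15 in the first (adjusted p = 0.654), and leaving out WT survival 3 brought the second-wave adjusted p to 0.0481. Without WT survival 1 and 2 the second-wave value was 0.60 (adjusted p = 0.326). GENCODE places 3 snoRNAs inside Gnl3 on the same strand, and Pbrm1 overlaps it on the other strand.

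Other members were higher in the second wave by similar amounts but with a wider spread. Nop2, the large-subunit ribosomal RNA methyltransferase, had 366, 318 and 402 normalized counts in the first wave and 492.5, 505.5 and 409 in the second wave, against 120.5, 161, 407 and 310.4 in WT survival libraries. Its log2 fold change of 1.07 ± 0.35 in the second wave (adjusted p = 0.232, limma) was 0.39 without WT survival 1 and 2, and the 0.69 of the first wave was 0.02. Tfrc had 4902, 6749 and 6992 in the first wave and 12598, 6269 and 12012 in the second wave, against 4167, 3109, 8467 and 6923 in WT survival libraries. Second-wave library 2 lay within the WT range (0.90 ± 0.32, adjusted p = 0.259), and the log2 fold change was 0.36 without WT survival 1 and 2. Erythroid markers summed to 0.377%, 0.0595% and 0.18% in second-wave libraries 1, 2 and 3. They summed to 0.0582%, 0.157% and 0.193% in first-wave libraries 1 to 3. In WT survival libraries 1 to 4 they summed to 0.103%, 0.0661%, 0.281% and 0.264%. Within each survival group the order of Tfrc followed that of the markers. WT survival 3 and 4, however, had more of the markers and less Tfrc than second-wave library 3. In the acute groups the order was reversed between KO acute 3 and 4 and between WT acute 2 and 3. The part of these markers in the Tfrc values was not tested.

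By role, all 4 RNA polymerase I genes were above 0 in both waves with all libraries in. In the second wave Polr1a (0.60), Polr1b (0.51), Rrn3 (0.31) and Ubtf (0.24) were uncalled. These were, without WT survival 1 and 2, at 0.50, 0.26, 0.16 and 0.06, and in the first wave Polr1b (-0.12) and Ubtf (-0.08) were then below 0, against 0.12 and 0.10 with all libraries. Polr1b had 832, 891.5 and 1044 normalized counts in the second wave against 571, 519.8, 707 and 827 in WT survival libraries, without overlap. All 3 growth genes were above 0 in the second wave (Srm at 0.71, or 0.03 without WT survival 1 and 2), and Odc1, the member with the smallest p in acute leukemia, was at 0.24 ± 0.20 (adjusted p = 0.614, limma). For the snoRNP genes the second wave gave 0.75 for Nolc1, 0.42 for Dkc1, 0.32 for Nop58, -0.05 for Nop56 and -0.19 for Fbl. Nolc1 was at 0.26, Nop56 at -0.20 and Fbl at -0.40 without WT survival 1 and 2. Of the small-subunit group 6 of 7 were above 0, from 0.11 for Rrp9 to 0.47 for Heatr1 and Utp20, with Noc4l at -0.07. Noc4l was at 0.05 without WT survival 1 and 2, and Nop14 was at -0.02, against 0.31 with all libraries. Of the large-subunit group 8 of 12 were above 0, with Rrp1b (0.74) and Bop1 (0.73) after Nop2. Ppan was the lowest of this group (-0.46 ± 0.21, unadjusted p = 0.042, adjusted p = 0.364, limma). Its WT survival values ran from 2859.5 to 3423.9 normalized counts, and the second wave overlapped them. Rrp1b was at 0.30 and Bop1 at 0.33 without WT survival 1 and 2. In all, 9 members were higher without overlap (23.7%, against 5.04% of all genes): Gnl3, Ddx21, Nop2, Polr1b, Nolc1, Nle1, Noc2l, Nop58 and Wdr43.

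**Figure D5:**
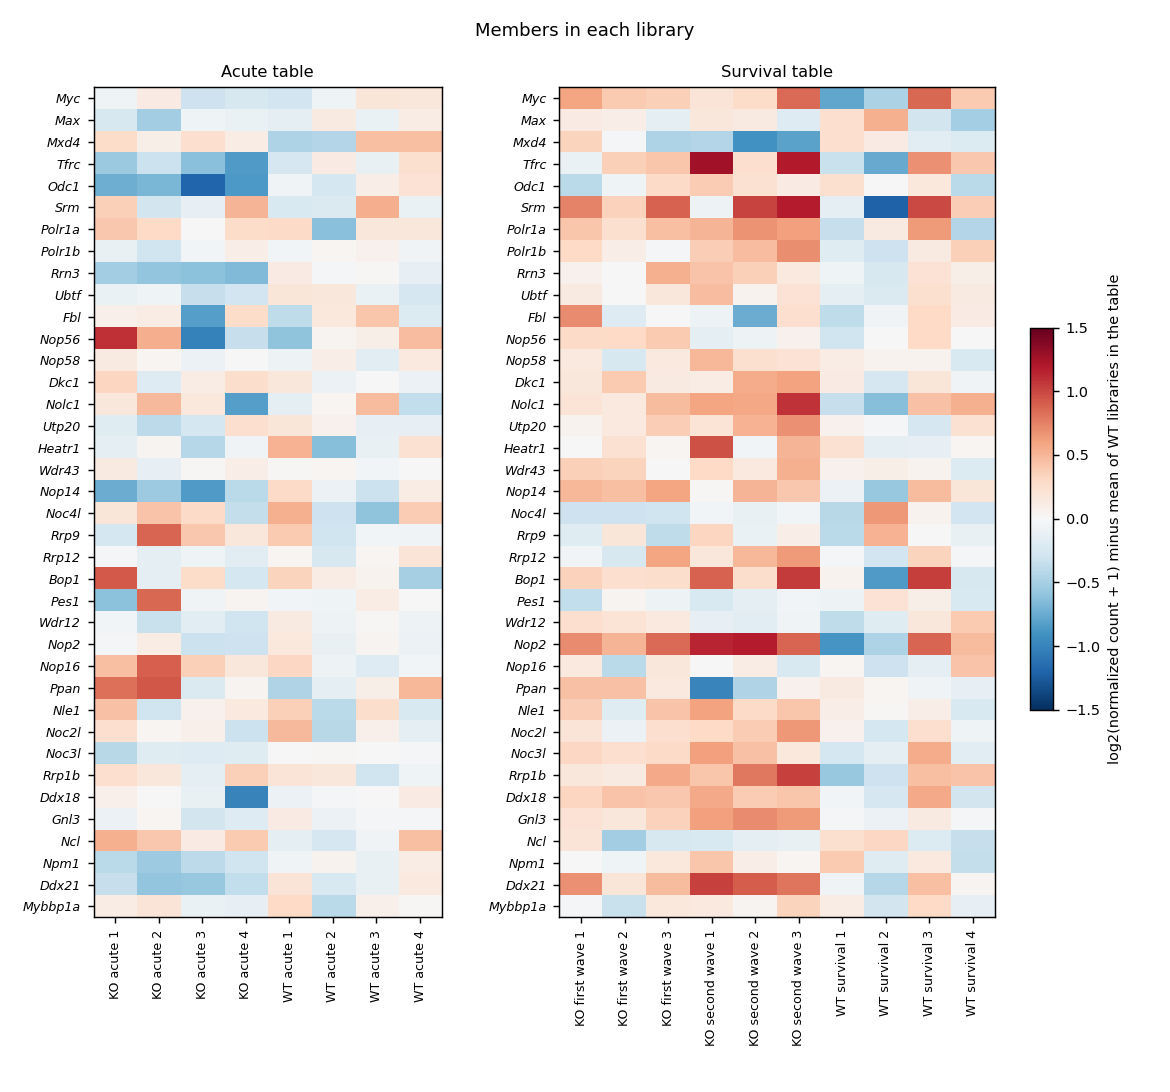
Log2(normalized count + 1) of each member in each library minus the mean of the WT libraries of its table (colour, from -1.5 to 1.5), with KO libraries left of WT libraries. In the acute panel Odc1, Tfrc, Rrn3 and Nop14 are blue in all 4 KO libraries, and in the survival panel WT survival 1 and 2 are bluer than WT survival 3 for Myc, Tfrc, Nop2 and Ddx21.

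The first wave gave smaller differences. Its 2 members at an unadjusted p under 0.05 were Ddx21 and Nop56, and the 2 higher without overlap were Ppan and Gnl3 (5.3%, against 4.4% of all genes), while 0 were lower without overlap (3.6% of all genes). Nop56 had 5696, 5722 and 6104.5 normalized counts in the first wave, against 3765, 4682, 5740.0 and 4621 in WT survival libraries, so that WT survival 3 overlapped the first wave (0.33 ± 0.15, adjusted p = 0.617, limma). The lower members with the smallest p were Noc4l and Ncl. Noc4l, a small-subunit factor, had 115, 114.5 and 116 in the first wave against 106, 225, 148 and 117 in WT survival libraries (-0.31, adjusted p = 0.765). Ncl had 9103, 5540.0 and 6731 in the first wave against 9378, 9842.5, 6897 and 6253 in WT survival libraries (-0.19, adjusted p = 0.784). Both overlapped WT. Without WT survival 1 and 2 Ncl turned to 0.09, while Noc4l was at -0.19, Nop56 at 0.18 and Ddx21 at 0.21.

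Set against each other, the waves differed in 17 of 14286 genes (0.119%; 0.014% higher and 0.105% lower) and in none of the 38 members by limma. At an unadjusted p under 0.05, 2 members were higher (5.3%, against 2.58% of all genes) and 3 lower (7.9%, against 3.76%). Without WT survival 1 and 2, 5 members were higher at that p (13.2%, against 3.5% of all genes). In that setting 4 were lower, where 691 of all 14201 genes were. Ppan had the smallest p, with 1561, 2278 and 3247 normalized counts in the second wave against 4217, 4219 and 3445 in the first wave. The waves did not overlap (-0.80 ± 0.22, unadjusted p = 0.0026, adjusted p = 0.381), and without second-wave library 3 Ppan was past the threshold (-1.06, adjusted p = 0.0479). Mxd4 (-0.67 ± 0.22, adjusted p = 0.553) and Nop56 (-0.38, adjusted p = 0.75) were also lower in the second wave. Gnl3 (0.41, adjusted p = 0.649) and Ddx21 (0.46, adjusted p = 0.784) were higher. Of the 38 members 29 were above 0 (48.9% of all genes), with a median of 0.21. This comparison uses no WT level, but the WT libraries share in its estimate of the spread. There were 9 members higher and 3 lower without overlap, 23.7% and 7.9%, against 6.3% and 7.29% of all genes. Erythroid markers had 13 of 14 and B-cell markers 0 of 8 log2 fold changes above 0 between the waves, none of them called, and their part was not tested.

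Taking both waves against WT, 3 genes were called (0.021%; 0.007% higher and 0.014% lower) and no member was (limma). At an unadjusted p under 0.05, 9 members were higher (23.7%, against 7.09% of all genes) and 1 was lower (2.6%, against 5.77%). Of the 38 members 30 were above 0 (78.9%, against 48.6% of all genes), with a median of 0.28. Ddx21 (0.68 ± 0.17, adjusted p = 0.251) and Gnl3 (0.45 ± 0.12, adjusted p = 0.262) had the smallest p, and Gnl3 was the 1 member whose 6 KO libraries were all above the WT libraries (2.6% of members, against 1.25% of all genes higher and 0.875% lower). The lower members with the smallest p were Mxd4 (-0.38, adjusted p = 0.375) and Ncl (-0.17, adjusted p = 0.659). Without WT survival 3, Ddx21 was past the threshold (0.83, adjusted p = 0.0423). Without WT survival 1 and 2, Ddx21 was at 0.44 (adjusted p = 0.961), Mxd4 at -0.20 and Ncl at 0.10, on the other side of 0. In that setting 28 members were above 0, the median was 0.10, and 4 members were higher at an unadjusted p under 0.05 (10.5%, against 2.57% of all genes).

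At the endpoint no gene of the wider lists was called in any survival comparison by limma. In the second wave 42 of 171 were at an unadjusted p under 0.05 (21.1% higher and 3.5% lower, against 6.59% and 6.4% of all genes). In the first wave 16 were at that p (5.8% and 3.5%, against 4.42% and 3.6%). Between the waves 11 were (4.1% and 2.3%, against 2.58% and 3.76%). For both waves together 37 were (17.5% and 4.1%, against 7.09% and 5.77%). Of the 38 other MYC targets, 31 were above 0 in the second wave with a median of 0.40, 15 of them at an unadjusted p under 0.05 (39.5%, against 6.59% of all genes). Without WT survival 1 and 2, 34 were above 0 and 7 were at that p (18.4%, against 3.4%). Chosen after their values were seen, Nop53, a large-subunit factor (-0.97 ± 0.20, adjusted p = 0.0749), and Tert, the telomerase reverse transcriptase (-1.49 ± 0.33, adjusted p = 0.0967), had the smallest p and were lower. Nop53 averaged 238 ± 19 in the second wave (SD, n = 3) against 468 ± 60 in WT survival libraries (SD, n = 4). Nme1, a nucleoside diphosphate kinase gene, averaged 718 ± 197 in the second wave (SD, n = 3) against 330 ± 131 in WT survival libraries (SD, n = 4; 1.18, adjusted p = 0.184, limma), and its close copy Nme2 can share reads with it.

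Members with and without the promoter motif are set side by side here, and their difference was not tested. Only the windows were searched, so members without the motif there may hold CACGTG elsewhere. In acute leukemia the 9 members with CACGTG in the window had a median log2 fold change of 0.02 and the 23 without it -0.00, and in the second wave the medians were 0.31 and 0.40. Among the 6 members called lower in acute leukemia, Rrn3 had the motif in its window, Odc1, Tfrc, Nop14 and Ddx21 did not, and Npm1 had no window.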

How the data were processed

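RNA sequencing of 18 leukemic mouse spleens was analysed from 2 deposited tables. The authors' values are in the unit signal: kallisto 0.44.0 gene counts that the authors scaled by DESeq size factors, with GRCm38 as the genome, per the submitters' processing notes. The sources used here name no version of the scaling tool, transcript annotation or strand setting. Each table was normalized on its own, so tests stayed within a table.

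In each library, only 38.0% to 63.6% of values under 8 came out as whole multiples of even the best-fitting step (tolerance 0.02). Whole reads could therefore not be recovered, and no count model was run. The steps are thus uncertain, and the depth they give, 6100000 to 12700000 reads per library, is only a rough estimate. Errors in the text are SDs over libraries or limma SEs.

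The scale was log2(value + 1), which understates changes of low genes. Genes averaging 10 or more were tested with limma 3.58.1 (R 4.3.3; lmFit, eBayes with trend) and Benjamini-Hochberg adjustment over all genes tested, at a threshold of 0.05. All 38 members passed this filter in both tables. The acute fit held 8 libraries, and the survival fit all 10, which shared 1 estimate of the spread. For Myc, exact permutation tests (two-sided) were added. The script was tested on simulated data. The alternatives were other pseudocounts (0.5, 5), filters (none, a mean of 50), scalings (quantile, totals, removal of a loess trend on transcript length, GC and abundance), variance models, a replicate block and libraries left out.

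The text names all 38 members. Values of every library are given for Myc, for called members and, where a comparison had none, for the 2 with the smallest p in each direction. Exceptions are Ppan in WT survival libraries, given as a range, and Ncl in the second wave, not listed. Others were added after their values were seen. Of each wider list up to 3 called genes per direction are named, and all 13 of the other MYC targets for their stability. Members and lists were chosen with earlier results of these data known, so they are no independent support. Gene coordinates come from GENCODE M21 (GRCm38), and promoter sequences from RefSeq (GRCm38.p6). The result of 1 marker gene is not reported here.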

Additional observations from a re-analysis of the deposited data

Results flagged for a closer look

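Among 114 groups of 4 libraries tested per member and group, 4 had 1 library far from the other 3 by Dixon's criterion, and chance flags about 1 in 20 groups. In WT acute library 3, Srm had 146.0 normalized counts, against 85.1, 85.4 and 92.7 in the other WT acute libraries. In KO acute library 1, Noc3l had 199.6, against 232.9, 234.6 and 236.1. In WT survival library 4, Wdr43 had 2207.1, against 2645.2, 2663.1 and 2713.7. In WT survival library 3, Noc3l had 397.0, against 223.3, 239.4 and 245.1.

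Ddx21 went opposite ways without overlap in the acute and the second-wave comparison, with log2 fold changes of -0.47 (KO acute against WT acute) and 0.91 (second wave against WT survival). The second-wave value was not called. The difference between these 2 was not tested, since the tables were normalized separately.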

How the results depend on the processing

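Odc1 and Rrn3 stayed called in all 19 acute alternatives, and the members' median stayed above 0 in every endpoint alternative. In KO acute against WT acute, against 1794 genes called, 693 were with eBayes without trend, 903 without KO acute 1 and 2, and 983 to 1634 with 1 library left out (983 without WT acute 4, 1179 without WT acute 2). Members called higher were 1 with quantile normalization, 1 with totals scaled, 2 with the trend removed, and 0 to 1 with 1 library left out. Members called lower (6) were 3, 3 and 2 under those scalings, 2 with eBayes without trend, 3 without KO acute 1 and 2, and 3 to 6 with 1 library left out. The members' median was 0.081 with totals scaled. In the first wave 1 gene was called with a pseudocount of 5, no filter, a mean of at least 50, quantile normalization, totals scaled, the trend removed or robust eBayes, 3 without WT survival 1 and 2 (members' median 0.056), and 0 to 3 with 1 library left out. In the second wave, against 32 genes called, 14 were with eBayes without trend, 14 without WT survival 1 and 2, 13 with only the groups compared, and 15 to 140 with 1 library left out (15 without WT survival 2, 19 without 1, 140 without 3, 61 without second-wave library 3), with 0 to 2 members higher. Between the waves, against 17, there were 1 with eBayes without trend, 2 with the replicate block, and 1 to 38 with 1 library left out, with 0 to 1 members lower and a median of 0.13 to 0.23. For both waves, against 3, there were 5 without WT survival 1 and 2 (members' median 0.10), and 2 to 155 with 1 library left out (155 without WT survival 3), with 0 to 1 members higher. The causes were not tested.

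The Myc log2 fold change turned to 0.0036 (quantile) and 0.0033 (totals) in acute leukemia, to -0.19 in the first wave, -0.19 in the second and -0.19 in both without WT survival 1 and 2, and between the waves to 0.0045 (totals), with -0.21 to 0.12 when 1 library was left out. In normalized counts the Myc difference, under alternatives chosen after seeing the data, turned to 1.74 (acute, totals), -174.0 (first wave), -155.7 (second wave) and -164.9 (both) without WT survival 1 and 2.

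Replicate numbers did not pair the libraries: deviations of same-numbered libraries correlated at -0.029 to 0.095. With the replicate block 1391 genes and 5 members (without Nop14, adjusted p = 0.0547) were called in acute leukemia, 0 in the first wave, 34 in the second wave and 2 for both waves.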

Other observations

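Markers of other spleen cells gave values that belong to no member. B-cell markers summed to 0.0142% to 0.0286% of counts in KO acute and 0.0131% to 0.0233% in WT acute libraries, with 8 of 9 tested log2 fold changes above 0, 0 called by limma and 3 at an unadjusted p under 0.05. In the second wave against WT survival, all 8 tested B-cell markers were below 0 and 1 fell, Pax5, the B-lineage transcription factor (-4.81 ± 0.81 SE, adjusted p = 0.0239, limma), which was at 0 in at least 1 survival library. Neutrophil markers summed to 0.0166% and 0.0095% in WT survival 1 and 2, against 0.00207% and 0.00304% in WT survival 3 and 4. Of the 12 neutrophil markers, Elane, Prtn3 and S100a9 were at 0 in at least 1 survival library.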
